A study of Equus caballus with 24 samples.

Results

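The long bone epiphysis of juvenile Debao ponies (DPs) was compared with that of adult DPs, to ask which genes differ in level between the juvenile and the adult stage in a small horse breed. The comparison takes the 3 libraries labelled DPLBJ (juvenile) and the 3 labelled DPLBA (adult), 6 of the 24 libraries of the study, over all genes, and it was fixed by these labels and not by any measured value. The study sequenced RNA of the pituitary gland and the epiphysis of 12 horses, 6 DPs and 6 Mongolian horses (MHs), a taller breed. All were females and each breed was sampled at the juvenile and the adult stage. The labels name no treatment and give the stage as a word only, and they do not say which long bone or which zone of the epiphysis was ground. Each juvenile and each adult is a different pony, so the spread between libraries of a group holds both the difference between animals and the difference between the pieces of tissue taken from them. The MH juveniles (MHLBJ) and adults (MHLBA), 3 libraries each, serve below as the comparison breed.

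The epiphysis is the end of a long bone. Under its cartilage lies spongy bone whose spaces hold marrow, which is red and makes blood cells in young animals and is in part replaced by fat with age, and between epiphysis and shaft lies the growth plate, where chondrocytes divide, swell and are replaced by bone until growth ends. Red cell formation can be read from globins, the enzymes of heme synthesis and the proteins of the red cell membrane skeleton, dividing cells from the genes of mitosis, and the connective tissue from its collagens and glycoproteins.

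Gene reads totalled 13922477 to 21885168 per library. A level is given as CPM, the reads of a gene scaled to a common library size by TMM, or as RPKM, the deposited reads scaled by gene length and by library size, wherever genes are compared with each other. The log2 fold change is juvenile minus adult, so a positive value means a higher level in juveniles. Transcripts of bone cells were present in every library (summed RPKM of the 18 osteoblast and osteocyte genes found 19350, 3483 and 20010 in the juveniles and 8843, 15320 and 13480 in the adults), but COL2A1, the main collagen of cartilage, stood at 5.63, 4517 and 11410 CPM in DPLBJ replicates 1, 2 and 3 and at 5417, 37.4 and 14970 CPM in the adults. DPLBJ replicate 1 and DPLBA replicate 2 were thus low in this cartilage transcript, and the other 4 libraries were high. DPLBJ replicate 1 was also below every adult in most markers of several marrow cell types, against 31.75% of all genes tested. It was so in 17 of 17 neutrophil, 18 of 19 macrophage and monocyte, 20 of 23 T and NK cell, 8 of 9 plasma cell and 15 of 16 osteoclast markers tested. The same held for 8 of 15 B cell, 6 of 9 megakaryocyte and 5 of 7 mast cell, eosinophil and basophil markers. Of the erythroid markers, only 9 of 23 (39.13%) were below every adult, nearer to the share of all genes. The log10(RPKM + 1) values of the juveniles correlated with each other at 0.899 to 0.954, lowest for DPLBJ replicates 1 and 2, while those of the adults correlated at 0.963 to 0.982. The long bone library closest to DPLBJ replicate 1 by this correlation was MHLBJ replicate 2, at 0.968 against 0.955 for the closest DP library, whereas each of the other 5 DP libraries was closest to a DP library. Its label was taken as given, and what is said of it below rests on that label. In bulk tissue, fewer cells of a type and less RNA per cell cannot be told apart. Since DPLBJ replicate 1 stood apart, the counts of DEGs below are set beside those of 6 fits that each left out 1 library, 1 of them without it. "Called in 4 of 6" and the like gives the number of those fits in which a gene was still a DEG.

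A total of 13866 genes had enough reads to be tested, and 436 of them (3.14%) were differentially expressed genes (DEGs), that is, they had an unadjusted P below 0.05 and a more than 2-fold difference in edgeR's quasi-likelihood test. Of the DEGs, 219 (1.58% of the genes tested) were higher and 217 (1.56%) were lower in juveniles, with log2 fold changes from -6.23 to 8.40 and a median over all genes tested of 0.028. Without TMM scaling the split moved to 179 higher and 273 lower, that is, 39.6% higher in place of 50.2%. No gene passed a Benjamini-Hochberg adjusted p of 0.05 in edgeR's quasi-likelihood test, so that each DEG below has an adjusted p of 0.988 or above, while 598 genes had an unadjusted P below 0.05 (4.31% of those tested), DESeq2 gave 15 adjusted calls and edgeR's exact test gave 3. The DEGs are therefore calls at an unadjusted threshold throughout. With 3 against 3 ponies an exact permutation test of 1 gene, 2-sided, cannot go below 0.1 and is therefore not given. The 3 juveniles and 3 adults did not overlap in CPM for 1249 genes (9.01%), among them 258 of the DEGs, 98 higher and 160 lower.

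The number of DEGs depended strongly on DPLBJ replicate 1. Without it 1323 genes were DEGs, of 14280 tested, 903 higher (6.32%) and 420 lower (2.94%), and 42 of them, all higher in juveniles, had an adjusted p below 0.05 in edgeR's quasi-likelihood test, the lowest 0.0106. Of the 436 DEGs of all 6 libraries, 334 were also DEGs without DPLBJ replicate 1, 191 of the 219 higher and 143 of the 217 lower. Without DPLBA replicate 3 the number dropped to 209, 79 higher and 130 lower, and without any of the other 4 libraries it lay between 343 and 572. In 205 of the 219 higher DEGs both DPLBJ replicates 2 and 3 were above all 3 adults, and DPLBJ replicate 1 joined them in 98 and did not in 107. Over all genes tested, these 2 libraries were above all 3 adults in 1719 of 13866 (12.4%). DPLBJ replicate 1 joined them in 566 of those and did not in 1153. The higher DEGs were chosen for high juveniles, which favours such a count.

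**Figure D1:**
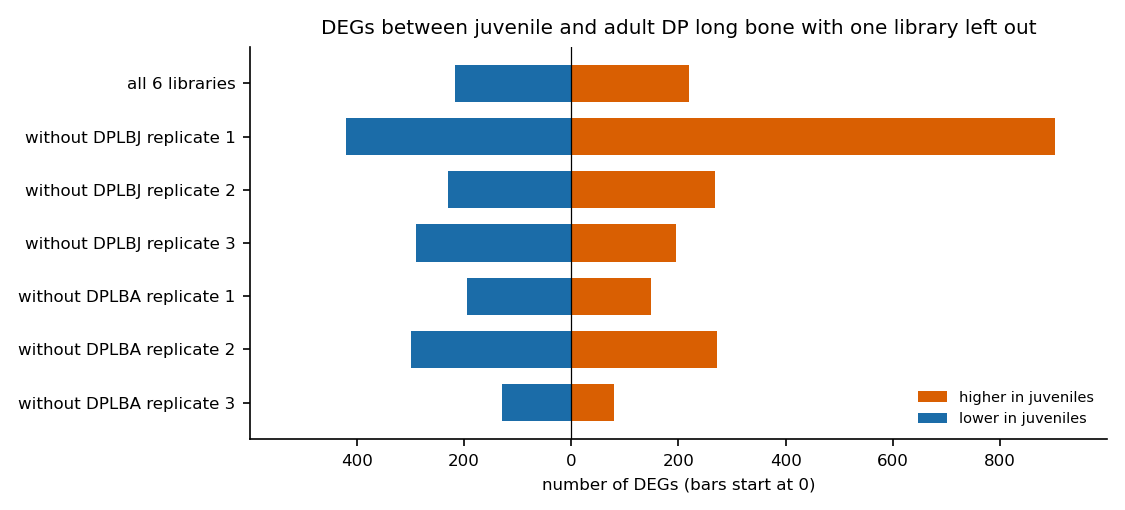
Number of DEGs (horizontal axis) higher and lower in juvenile than in adult DP long bone with all 6 libraries and with each library left out in turn. The count is 436 with all libraries, 1323 without DPLBJ replicate 1 and 209 without DPLBA replicate 3.

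Red cell genes had the highest count of DEGs among the 49 lists described. Of 32 listed erythroid genes 25 were found and 23 tested, and 17 rose in juveniles, 0 fell and 6 did not pass, against 1.58% of all genes that were higher. The median log2 fold change over the 23 was 4.20, against 0.028 over all genes. All 23 had a log2 fold change above 0. The summed RPKM of the list was 71.2, 10070 and 5564 in DPLBJ replicates 1, 2 and 3 and 84.4, 312 and 73.0 in the adults. DPLBJ replicates 2 and 3 thus stood far above every adult, and DPLBJ replicate 1 was just below the lowest adult. The white cells of the marrow were ordered otherwise, with a summed RPKM of neutrophil and granule precursor markers of 33.3, 10080 and 1608 in the juveniles and 1585, 939.5 and 1549 in the adults, so that DPLBJ replicate 3 was close to the adults in these and well above them in red cell genes.

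Transcripts of the proteins of the red cell membrane are given first. Band 3 anion exchanger SLC4A1 had 2, 2842 and 5327 reads in the juveniles and 1, 158 and 3 in the adults (log2 fold change 5.97, SE 2.29, called in 2 of 6). DPLBJ replicates 2 and 3 were far above the adults, while DPLBJ replicate 1 lay among them. ANK1, the ankyrin that ties band 3 to spectrin, was at 5.55, 163 and 144 CPM in juveniles and 5.19, 11.3 and 7.23 CPM in adults, and beta-spectrin SPTB was at 1.26, 151 and 222 against 6.58, 8.35 and 3.62 CPM. ANK1 differed by 13.1-fold in group means (log2 fold change 3.72, SE 1.04) and SPTB by a log2 fold change of 4.33 (SE 1.38, called in 4 of 6). For these as well, 2 juveniles were high and the third was not. EPB41, protein 4.1 of the membrane skeleton, was 1 of the 3 genes of the list whose groups did not overlap, at 76.7, 259.7 and 214 CPM in juveniles and 60.7, 33.99 and 44.4 CPM in adults, with a mean of 184 ± 95.3 against 46.4 ± 13.5 (SD, n = 3, log2 fold change 1.99, SE 0.49). The other membrane genes EPB42 (log2 fold change 6.65, called in 5 of 6), RHAG (6.05, called in 4 of 6), TMCC2 (3.86, called in 3 of 6) and DMTN (2.11, called in 1 of 6) passed with all 6 libraries.

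Hemoglobin and heme genes showed the same pattern among ponies. HBB, the adult beta-globin and by RPKM the most abundant of the list, had 0, 79427 and 39999 reads in the juveniles and 0, 2694 and 3 in the adults. Its log2 fold change of 5.93 (SE 3.31) did not pass, with no reads in 1 juvenile and 2694 in 1 adult. ALAS2, the erythroid enzyme that starts heme synthesis, likewise had 0, 12568 and 10515 reads against 0, 387 and 0 and did not pass. It was named here after its values were seen. The alpha-like globin HBZ1, whose reads may be shared with near-identical globin copies, rose (log2 fold change 6.11, called in 3 of 6) with 10, 21201 and 8955 reads against 32, 505 and 56. FECH, which inserts iron into heme, was at 27.2, 43.0 and 144 CPM in juveniles and 21.7, 25.1 and 13.9 CPM in adults (log2 fold change 1.82, SE 0.62, called in 3 of 6), and the mitochondrial iron importer SLC25A37 at 21.6, 78.4 and 269 against 15.6, 31.2 and 22.9 CPM (log2 fold change 2.41, SE 0.82, called in 3 of 6). In both, DPLBJ replicate 3 was the highest of the 6 libraries. TRIM58, an erythroid ubiquitin ligase, was at 4.29, 26.3 and 47.9 CPM against 1.90, 2.54 and 3.77 CPM, without overlap, and differed by 9.55-fold (log2 fold change 3.26, SE 0.81). AHSP, the chaperone of alpha-globin (5.91, called in 3 of 6), HEMGN, an erythroid nuclear protein (6.74, called in 4 of 6), and the erythropoietin receptor EPOR (2.89, called in 2 of 6) also passed with all 6 libraries.

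**Figure D2:**
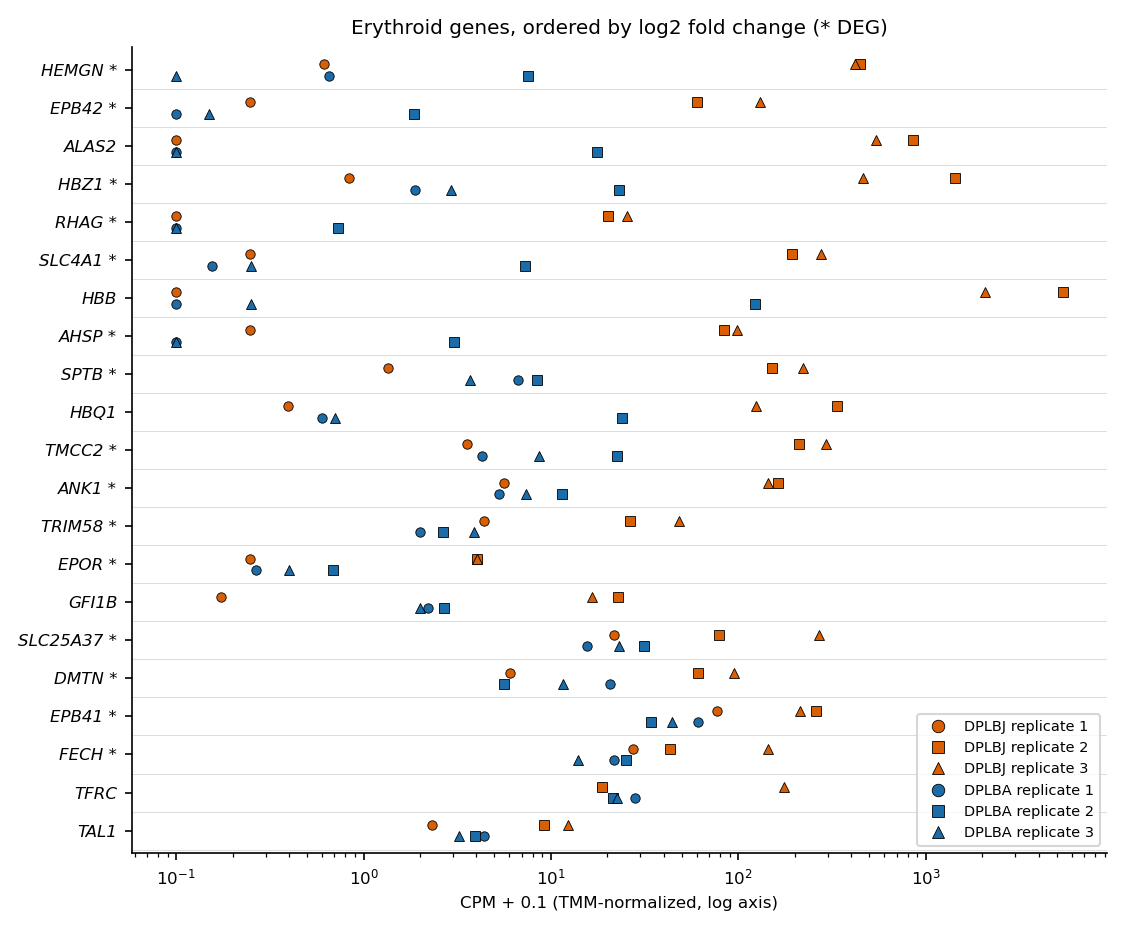
Levels of the erythroid genes in each DP long bone library, horizontal axis in CPM plus 0.1 on a log scale, with 1 row per gene, 1 point per library (orange juveniles, blue adults, shape the replicate number) and a star at each DEG. DPLBJ replicates 2 and 3 lie to the right of the adults in 20 of the 21 genes shown, and DPLBJ replicate 1 lies above all adults in 3 of these 20.

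The erythroid count changed with the library left out. Without DPLBJ replicate 1 all 24 genes tested rose, with a median of 4.86, against 6.32% of all genes higher in that fit. Erythroid genes such as ANK1 (adjusted p = 0.0106) and SPTB (0.0106) were among the 42 that passed the adjusted threshold in edgeR's quasi-likelihood test of that fit. Without DPLBA replicate 3 the count was 5, without DPLBA replicate 1 it was 6 and without DPLBJ replicate 3 it was 9, while the median stayed between 3.62 and 5.15 in all 6 fits. EPB41, TRIM58 and ANK1 were called in every one of the 6. Adult replicate 2 carried part of the adult signal, with the highest summed RPKM of the adults. The part that the amount of marrow in each piece has in this result was not tested.

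Genes of cell division were higher in the same 2 juveniles. Of 40 cell cycle genes tested, 10 rose, 0 fell and 30 did not pass, against 1.58% of all genes that were higher. All 40 had a log2 fold change above 0 (0.16 to 2.59, median 1.55), as did 52.4% of all genes (median 0.028). TOP2A, which untangles DNA before mitosis, was at 42.6, 662 and 426 CPM in the juveniles and 103, 91.8 and 48.0 CPM in the adults (log2 fold change 2.22, SE 0.85, called in 1 of 6). CENPE, a kinetochore motor, was at 7.11, 155 and 78.5 CPM against 10.1, 19.5 and 10.3 CPM (log2 fold change 2.59, SE 0.91, called in 3 of 6). DPLBJ replicates 2 and 3 were several times above the adults in both genes, and DPLBJ replicate 1 was below all of them. The spindle and mitosis genes CDC20 (log2 fold change 2.57), DLGAP5 (2.27), TPX2 (2.07), CENPF (2.0), HMMR (1.90), PRC1 (1.66), AURKA (1.48) and NUSAP1 (1.40) made up the rest of the 10. Of these 8, TPX2, HMMR and NUSAP1 were called in 1 of 6 and the others in 2. PCNA, the replication clamp and the highest of the list by RPKM, had a log2 fold change of 0.94 and did not pass. Across the list, DPLBJ replicates 2 and 3 exceeded every adult in 39 of 40 genes, against 12.4% of all genes. DPLBJ replicate 1 exceeded every adult in 0 of those 39 and lay below every adult in 33 of the 40, against 31.75% of all genes. The call rests on few libraries. With DPLBJ replicate 1 left out the count was 37 of 40, against 6.32% of all genes higher in that fit. With DPLBJ replicate 3 left out it was 2, and with DPLBJ replicate 2, DPLBA replicate 1 or DPLBA replicate 3 left out 0. EdgeR's quasi-likelihood test gave no adjusted call in this list with all 6 libraries.

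**Figure D3:**
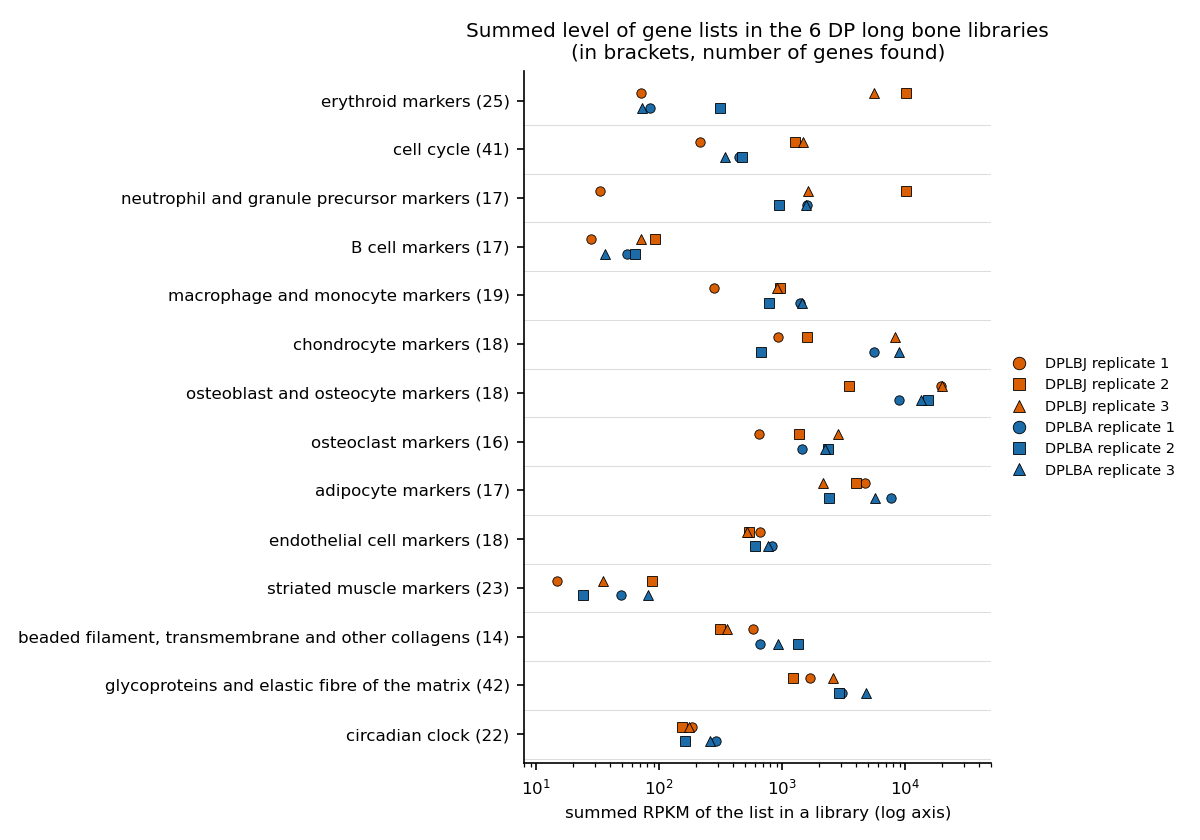
Summed RPKM of marker lists (horizontal axis, log scale) in each DP long bone library, with 1 row per list and 1 point per library (orange juveniles, blue adults, shape the replicate number). The erythroid sum is 10070 and 5564 in DPLBJ replicates 2 and 3 and 71.2 in DPLBJ replicate 1, and adults lie between 73.0 and 312.

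White cell genes did not show a call of this kind. Of 17 neutrophil and granule precursor genes 0 passed (median log2 fold change 1.16), and S100A12, a neutrophil calcium-binding protein, ran at 3.26, 4227 and 476 CPM in the juveniles and 440.4, 315 and 547 CPM in the adults. DPLBJ replicate 2 was the highest and DPLBJ replicate 1 the lowest library, so the juveniles enclosed the adults. Without DPLBJ replicate 1, 15 of the 17 genes were DEGs, all higher, against 6.32% of all genes higher in that fit. Among macrophage and monocyte genes the scavenger receptor MARCO (0.666, 2.71 and 6.97 against 13.2, 6.26 and 39.1 CPM, log2 fold change -2.49) and the sialic acid receptor SIGLEC1 (log2 fold change -1.13, called in 1 of 6) fell, 2 of 19 tested, and MARCO was not called without DPLBA replicate 3 or DPLBJ replicate 2. The granzyme gene GZMK fell (log2 fold change -1.23, called in 1 of 6), 1 of 23 T and NK cell genes. The macrophage and monocyte and the T and NK cell counts are to be read against 1.56% of all genes lower. No B cell (15 tested), plasma cell (9), megakaryocyte (9) or mast cell, eosinophil and basophil gene (7) passed, with medians from 0.09 to 0.26. Without DPLBJ replicate 1, 3 of 15 B cell, 2 of 10 megakaryocyte, 1 of 8 mast cell, eosinophil and basophil and 0 of 9 plasma cell genes were DEGs. All of these were higher, against 6.32% of all genes higher in that fit.

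The 12 genes with the lowest P that were higher in juveniles were named on the condition that the groups did not overlap, so that DPLBJ replicate 1 is above every adult in them by choice. In 6 of the 12 (EPB41, KIAA1524, MPP2, NAA16, TBCEL and TRIM58) it was still nearer on the log2 scale to the highest adult than to the next juvenile, as in MPP2 at 3.70, 35.0 and 17.3 CPM in juveniles and 1.62, 3.68 and 1.86 CPM in adults. CLIC5, a member of the intracellular chloride channel family, was at 4.81, 10.2 and 7.75 CPM in juveniles and 0.725, 0.862 and 0.603 CPM in adults (log2 fold change 3.37, SE 0.52), the lowest P of all genes (adjusted p = 0.988). RIC3, a chaperone of nicotinic acetylcholine receptors, was at 27.9, 19.1 and 19.6 CPM against 3.52, 6.13 and 5.27 CPM, a 4.46-fold difference (log2 fold change 2.16, SE 0.38). ZFAND6, a zinc finger protein, was at 297, 262 and 318 CPM against 92.2, 125 and 135 CPM, a 2.49-fold difference (log2 fold change 1.32, SE 0.30). In these 3 genes DPLBJ replicate 1 was well above every adult, as were the other juveniles. RIF1, a factor of replication timing, was at 70.8 ± 16.7 CPM in juveniles against 26.5 ± 4.83 CPM in adults (SD, n = 3, log2 fold change 1.42), and GCH1, the first enzyme of tetrahydrobiopterin synthesis, at 6.71 ± 1.84 against 1.83 ± 0.476 CPM (log2 fold change 1.87). TBCEL (log2 fold change 2.06), the N-terminal acetyltransferase subunit NAA16 (1.83), KIAA1524 (1.61), the scaffold protein MPP2 (2.96) and the splicing factor kinase SRPK1 (1.40) complete the 12 together with EPB41 and TRIM58. SRPK1 was not called without DPLBJ replicate 2 (log2 fold change 0.99 to 1.58 over the 6 fits), and the other 11 were called whichever library was left out.

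The 12 lowest-P genes in the other direction were all called whichever library was left out. SLIT1, a secreted axon guidance ligand, was at 0.222, 0.474 and 0.207 CPM in juveniles and 4.24, 2.72 and 3.87 CPM in adults (log2 fold change -3.56, SE 0.61). MERTK, the receptor tyrosine kinase by which phagocytes take up dying cells, was at 18.4, 19.2 and 21.0 CPM against 51.1, 40.3 and 68.9 CPM (log2 fold change -1.45, SE 0.31). TNC, the matrix glycoprotein tenascin C, was at 178, 211 and 457 CPM against 859.7, 904 and 1242 CPM (log2 fold change -1.83, SE 0.46). The 3 juveniles were close together in MERTK, and in TNC even the highest juvenile was below the lowest adult. Of the 12, 2 were at or under 3 reads in every juvenile and are given as bounds. ANKRD33 had 1, 1 and 1 reads in juveniles and 17, 23 and 12 in adults, at least 4.47-fold lower, and SATL1 had 2, 0 and 0 against 28, 20 and 18, at least 5.81-fold lower, both set against 3 reads per library. The others were the lipopolysaccharide-binding protein LBP (log2 fold change -3.60), PDZK1, a scaffold of membrane transporters (-2.97), KIAA1683 (-2.90), BPIFC (-5.40), the small GTPase RASD2 (-2.39), STAC2 (-2.46) and ISLR2 (-3.13). BPIFC, SLIT1, LBP, KIAA1683 and ISLR2 were among those at under 1 CPM in every juvenile, which makes their folds imprecise.

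**Figure D4:**
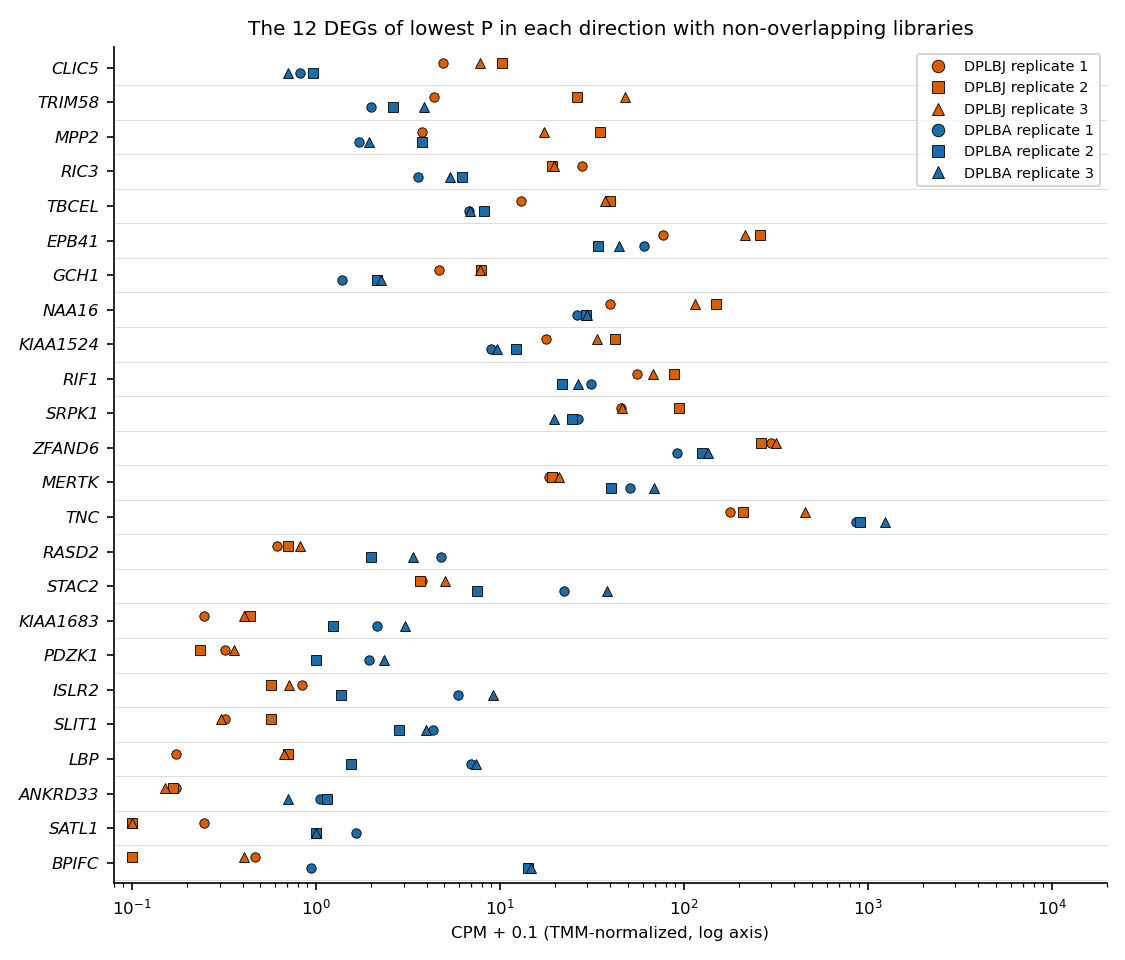
Levels of the 24 genes with the lowest P, 12 higher and 12 lower in juveniles, in each DP long bone library, horizontal axis in CPM plus 0.1 on a log scale, orange juveniles, blue adults, shape the replicate number. Juvenile and adult points do not overlap in any of these genes, which was a condition for naming them.

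Both collagen VI chains with a call were lower in juveniles. Among 11 genes of beaded filament, transmembrane and other collagens, 3 fell, 0 rose and 8 did not pass, against 1.56% of all genes lower, and the median log2 fold change was -0.83. COL6A1, a chain of the collagen VI filaments that surround cells, was at 460, 476 and 311 CPM in juveniles and 833, 2103 and 1067 CPM in adults (log2 fold change -1.68, SE 0.46). COL6A2, its partner chain, was at 583, 534 and 401 against 894, 2395 and 1129 CPM (log2 fold change -1.54, SE 0.47). Every juvenile was below every adult in both chains, and DPLBA replicate 2 was the highest. COL6A1 was called in all 6 fits that left out 1 library (-1.93 to -1.19), COL6A2 was not called without DPLBA replicate 2 (-1.80 to -1.0), and the transmembrane collagen COL23A1 (log2 fold change -2.24) was not called without DPLBA replicate 1, DPLBA replicate 3 or DPLBJ replicate 2. The number of DEGs in the list was 2 to 5 over these fits, and the median without DPLBJ replicate 1 was -1.38.

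Some other matrix genes that fell were high in 1 adult. COL3A1, a fibrillar collagen of soft tissue and vessels, was at 623, 519 and 590.1 CPM in juveniles and 563, 7410 and 635 CPM in adults (log2 fold change -2.31), the 1 DEG of 9 fibrillar collagens, and without DPLBA replicate 2 the log2 fold change was -0.05 (called in 2 of 6). DPLBA replicate 2 alone stood out, and the other 5 libraries lay close together. Likewise the laminin chain LAMA2 (log2 fold change -3.46, -3.97 to -0.84 over the 6 fits), the stromelysin MMP3 (-4.18, -5.86 to -0.53) and the small leucine-rich proteoglycan ASPN (-5.34, -6.48 to 1.65) were not called without DPLBA replicate 2, and ASPN turned to 1.65 without it. The 217 lower DEGs were chosen for high adults, and an adult was the highest library in each of them. This was DPLBA replicate 1 in 66, DPLBA replicate 2 in 53 and DPLBA replicate 3 in 98. DPLBA replicate 2 was more than 3 times each other library in 18 of the 217 and in 62 of all 13866 genes (0.447%), a comparison that the same choice favours. Of 40 matrix glycoprotein and elastic fibre genes, 2 fell (TNC and LAMA2), against 1.56% of all genes lower, and 34 of 40 had a log2 fold change below 0, against 47.6% of all genes, with a median of -0.68. Of 40 tested proteases and inhibitors, 4 fell (2 to 6 over the 6 fits), among them MMP3, the membrane collagenase MMP14 (155, 92.6 and 224 against 278, 287 and 423 CPM, log2 fold change -1.07) and ADAMTS12 (-1.11, called in 4 of 6). MMP14 was not called without DPLBA replicate 3, DPLBJ replicate 1 or DPLBJ replicate 2. PODNL1, of the same leucine-rich family as ASPN, fell (-1.65) and was called in all 6 fits, so that 2 of the 14 small leucine-rich proteoglycan genes were DEGs. No basement membrane and network collagen (8 tested, median -0.63), no FACIT collagen (9, -0.13) and no gene of collagen processing (29, -0.13) passed. COL1A2, the bone collagen with the highest RPKM of its list, was at 63120, 6251 and 27170 CPM in juveniles and 8546, 62680 and 24490 CPM in adults, so each group spanned the other (log2 fold change 0.01, SE 1.00).

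Cartilage and bone cell markers did not pass in either direction with all 6 libraries. None of 15 chondrocyte genes tested passed. The summed RPKM of the 18 found was 930.3, 1584 and 8192 in juveniles and 5517, 676 and 8853 in adults, with DPLBJ replicates 1 and 2 and DPLBA replicate 2 the low libraries, and for COL2A1 the log2 fold change was -0.36 (SE 2.01). At that spread a stage difference in cartilage RNA was not detectable. Of 17 osteoblast and osteocyte genes, osteocalcin BGLAP was at 525, 197 and 57.1 CPM in juveniles and 33.2, 0 and 42.4 CPM in adults (log2 fold change 3.37, SE 1.63, not passed), and sclerostin SOST, the WNT inhibitor of osteocytes, had a log2 fold change of -2.04 (SE 0.98, not passed). The 8 hypertrophic chondrocyte genes had a median of -0.11, the 16 osteoclast genes -0.44 and the 16 adipocyte genes -0.68, all without a DEG. With 1 library left out, 0 to 6 adipocyte genes were DEGs (6 without DPLBA replicate 2, 3 without DPLBJ replicate 1), 0 to 3 osteoblast and osteocyte, 0 to 2 osteoclast, 0 to 2 chondrocyte and 0 to 1 hypertrophic chondrocyte genes. Of the 3 adipocyte genes without DPLBJ replicate 1, 1 was higher and 2 were lower. Over all genes, 572 of 14063 were DEGs without DPLBA replicate 2 and 1323 of 14280 without DPLBJ replicate 1. Without DPLBJ replicate 3 the number over all genes was 484 of 14123. NFATC1, the osteoclast master transcription factor, passed the threshold on P at a log2 fold change of -0.87, under the fold required. The fat-cell lipid carrier FABP4 was at 3076, 1980 and 1188 CPM in juveniles and 4386, 1594 and 3580 CPM in adults (log2 fold change -0.61).

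Genes of growth signalling that passed are given list by list, to be read against 1.58% of all genes higher and 1.56% lower. The growth hormone receptor GHR was at 175, 98.8 and 65.6 CPM in juveniles and 228, 57.5 and 94.6 CPM in adults (log2 fold change -0.16, SE 0.57), with the groups overlapping. The sign turned to 0.57 without DPLBA replicate 1 and to 0.11 without DPLBJ replicate 3. IGF1, the growth factor induced through that receptor, was at 61.1, 28.3 and 15.6 CPM against 16.8, 24.2 and 6.98 CPM (log2 fold change 1.13, SE 0.61), and ALPL, the phosphatase of mineralizing bone, at 699, 226 and 454 against 172, 252 and 422 CPM (log2 fold change 0.70, SE 0.51). DPLBJ replicate 1 was the highest library in both. Within the 21 growth hormone, IGF and JAK-STAT genes the feedback inhibitor SOCS3 fell (log2 fold change -1.27), but not in any of the 6 fits that left out 1 library. Of 37 growth plate genes the transcription factor SOX6 rose (at 16.8, 224 and 76.0 CPM against 25.5, 22.2 and 18.4 CPM, log2 fold change 2.26). In SOX6, DPLBJ replicates 2 and 3 were above every adult and DPLBJ replicate 1 was below every adult, as in most cell cycle genes. It was not called without DPLBA replicate 1, DPLBA replicate 2, DPLBA replicate 3 or DPLBJ replicate 2 (1.11 to 2.77). GDF10, a ligand of the BMP family (-1.90, called in 2 of 6), and CHRD, a BMP antagonist (-1.38, called in 2 of 6), fell. Of 41 TGF-beta and BMP genes, FST, the activin-binding follistatin, fell besides GDF10, from 37.0 ± 11.5 CPM in adults to 14.1 ± 3.41 in juveniles (SD, n = 3, log2 fold change -1.40), and was called in all 6 fits.

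The 4 WNT genes that fell act outside the cell or at its surface. Of 47 tested, DKK1, a secreted WNT antagonist (18.7, 5.56 and 9.81 against 21.1, 30.1 and 51.3 CPM, log2 fold change -1.59), SFRP5, another (-2.09, called in 1 of 6), the receptor ROR2 (-1.0, called in 1 of 6) and the R-spondin receptor LGR6 (-1.45, called in 2 of 6) fell, 0 rose and 43 did not pass, against 1.56% of all genes lower, and the median was -0.32. The count was 8 of 50 without DPLBJ replicate 1, against 2.94% of all genes lower in that fit. It was 7 without DPLBA replicate 2 and 0 without DPLBA replicate 3. DKK1 was not called without DPLBA replicate 3 or DPLBJ replicate 3 (-2.13 to -1.17). VDR, the vitamin D receptor and the only DEG of 21 mineralization genes, was at 44.3, 27.0 and 23.6 CPM in juveniles and 122.6, 38.9 and 133 CPM in adults (log2 fold change -1.64, SE 0.51). All juveniles but replicate 1 were below all adults, and the call held in all 6 fits (-2.02 to -1.35). Without DPLBJ replicate 1 the count of the list was 5, with 1 higher and 4 lower. In that fit 6.32% of all genes were higher and 2.94% lower. Of 14 genes of the fetal growth programme, MYCN, a growth-promoting transcription factor, fell (2.07, 0.745 and 2.43 against 9.37, 4.31 and 6.58 CPM, log2 fold change -1.94, called in all 6 fits), and E2F3, which drives entry into S phase, rose (1.28, not called without DPLBA replicate 1, DPLBA replicate 2, DPLBA replicate 3 or DPLBJ replicate 2). Of 27 genes at known height loci the condensin subunit NCAPG (2.27) and ANKRD1 (1.98) rose. The mineralization, fetal growth and height counts are to be read against 1.58% of all genes higher and 1.56% lower. NCAPG was at 14.0, 289 and 158 CPM against 24.3, 54.9 and 16.2 CPM, with DPLBJ replicate 1 the lowest library, and was not called without DPLBA replicate 1, DPLBA replicate 3, DPLBJ replicate 2 or DPLBJ replicate 3 (1.47 to 2.92), and ANKRD1 was not called without DPLBJ replicate 1 (1.33 to 2.33). Among 35 tested genes that the study singled out, which were chosen on these samples and are no independent evidence, COL6A1 was the 1 DEG.

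Clock genes included some with low levels in all 3 juveniles. Of 22 circadian clock genes, 4 fell, 0 rose and 18 did not pass, against 1.56% of all genes lower, and the median was -0.30. NR1D1, the repressor REV-ERB alpha, was at 0.592, 0.271 and 0.981 CPM in juveniles and 10.99, 1.27 and 7.89 CPM in adults (log2 fold change -3.42, SE 0.89), and was called in all 6 fits. DBP, an output transcription factor of the clock, was at 6.07, 7.32 and 4.96 against 13.7, 7.71 and 18.4 CPM (log2 fold change -1.12), and NPAS2, the partner of BMAL1, at 5.85, 4.13 and 5.32 against 14.9, 7.03 and 12.5 CPM (log2 fold change -1.17). Each juvenile was below each adult in these 3 genes, with DPLBA replicate 2 nearest to the juveniles. DBP was called in 2 of the 6 fits and NPAS2 in 2. DBP was not called without DPLBA replicate 1, DPLBA replicate 3, DPLBJ replicate 1 or DPLBJ replicate 3 (-1.40 to -0.81), nor NPAS2 without DPLBA replicate 1, DPLBA replicate 3, DPLBJ replicate 2 or DPLBJ replicate 3 (-1.43 to -0.94). The count was 1 to 7 DEGs over the 6 fits, with medians from -0.85 (without DPLBJ replicate 1) to -0.26. The time of day at which each pony was sampled is not in the labels, and its part in this result was not tested.

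The few vessel, stromal and muscle markers that passed were lower in juveniles, each list to be read against 1.56% of all genes lower. Of 18 endothelial genes the lymphatic receptor FLT4 (4.44, 2.24 and 4.34 against 8.65, 27.1 and 11.6 CPM, log2 fold change -2.10, called in all 6 fits), the VEGF receptor FLT1 (-3.19) and the sinusoidal scavenger receptor STAB1 (-1.03) fell. The endothelial count was 1 to 3 over the 6 fits. FLT1 lost its call without DPLBA replicate 2, DPLBJ replicate 2 or DPLBJ replicate 3 (-3.72 to -0.46), and STAB1 without DPLBA replicate 2, DPLBA replicate 3, DPLBJ replicate 1 or DPLBJ replicate 3 (-1.25 to -0.84). The stromal genes EBF1 (-2.28) and PDGFRB (-1.07, called in 2 of 6) fell, 2 of 10, and EBF1 was high in DPLBA replicate 2 alone, so that its log2 fold change was -0.10 without it. Smooth muscle myosin MYH11 (-1.35, called in 3 of 6), 1 of 14, the slow muscle light chain MYL3 (-2.23, called in 5 of 6), 1 of 14, and the tendon and cartilage matrix proteins CILP (0.814, 3.12 and 4.39 against 18.0, 7.21 and 20.9 CPM, -2.46, called in all 6 fits) and CRTAC1 (-1.38, called in 2 of 6), 2 of 14, fell, and the neurofilament NEFM (2.01), 1 of 9 nerve genes, rose. NEFM was not called without DPLBA replicate 1, DPLBA replicate 3 or DPLBJ replicate 1 (1.25 to 2.45).

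Few stress, immune or metabolic genes passed, and the counts of this paragraph are to be read against 1.58% of all genes higher and 1.56% lower. The phosphatase DUSP1, an immediate early gene that glucocorticoids also induce, rose (115, 48.0 and 58.8 against 44.6, 25.3 and 26.2 CPM, log2 fold change 1.21), the 1 DEG of both the 29 immediate early and the 15 glucocorticoid response genes, and was not called without DPLBA replicate 2, DPLBA replicate 3 or DPLBJ replicate 1 (0.75 to 1.52). The interferon-induced genes ISG15 (1.11, 0.813 and 1.65 against 8.93, 2.59 and 3.57 CPM, -2.06) and MX1 (-1.03, called in 2 of 6) fell, 2 of 41, and ISG15 was not called without DPLBA replicate 1 (-2.38 to -1.36). Fatty acid synthase FASN fell (-2.11), 1 of 33 lipid genes, and was not called without DPLBA replicate 3, DPLBJ replicate 1 or DPLBJ replicate 2 (-2.57 to -0.60). No gene of heat shock (22 tested, median 0.15), antigen presentation (19, -0.11), inflammatory cytokines and Toll-like receptors (31, -0.01), oxidative phosphorylation in the nucleus (43, -0.06) or the mitochondrion (11, -0.08), ribosomal proteins (66, 0.02) or histones (11, 0.17) was a DEG with all 6 libraries. Without DPLBJ replicate 1, 9 of 20 histones (all higher, median 1.23) and 5 of 35 inflammatory genes were DEGs, against 6.32% of all genes higher and 2.94% lower in that fit. Among 20 HOX genes, which keep the positional identity of a limb segment, HOXD11 (2.96, 1.49 and 1.29 against 0.223, 0.681 and 0.703 CPM, log2 fold change 1.81) and HOXD9 (1.06, called in 2 of 6) rose and HOXA7 (-1.29, called in 3 of 6) fell. HOXD11 was not called without DPLBA replicate 1, DPLBA replicate 2, DPLBA replicate 3 or DPLBJ replicate 1 (1.37 to 2.05), and 8 of 25 HOX genes were DEGs without DPLBJ replicate 1. By RPKM the most abundant gene of the 6 libraries was FAM117A, at 34380, 3261 and 14310 RPKM in juveniles and 4434, 43320 and 15360 RPKM in adults, followed by SPP1 (osteopontin), the mitochondrial MT-CO1 and the ribosomal RPL35 and RPS6, none of them a DEG. Like FAM117A, COL1A2 was highest in DPLBJ replicate 1 (11010 RPKM) and DPLBA replicate 2 (10630 RPKM). Both genes were lowest in DPLBJ replicate 2 (COL1A2 at 1032 RPKM). Whether the reads counted for FAM117A come from FAM117A itself was not tested.

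The stage effect of DPs was set against that of MHs to see whether the same genes moved in the taller breed. In MH long bone 404 of 13899 genes were DEGs (2.91%). MHLBA replicate 1 stood apart from the other MH libraries in some lists, with a summed RPKM of 873 in adipocyte and 352 in endothelial markers. The other MH libraries had 8206 to 10870 and 909.7 to 1299 in these lists. The MH stage effect was not fitted without MHLBA replicate 1. Over 13313 genes tested in both breeds, the log2 fold changes of the breeds, which share no library, had a Pearson r of 0.015 across genes, as a description. Of 402 DP DEGs tested in MHs, 193 had the same sign and 18 were DEGs in both. These 18 were 4.13% of all 436 DP DEGs, tested in MHs or not, and 4.46% of the 404 MH DEGs. Of the 18, 9 went in the same direction. These 9 included the matrix genes ASPN and MMP3 (chosen after their values were seen), lower in juveniles of both breeds, though in DPs neither was called without DPLBA replicate 2, where ASPN was at 1.65 and MMP3 at -0.53.

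The test of the difference itself, the interaction of stage and breed over the 12 long bone libraries in edgeR's quasi-likelihood test, called 375 of 14735 genes (2.54%) with a DP effect above the MH effect and 240 (1.63%) with one below, at an unadjusted P below 0.05 and a difference over 1 on the log2 scale. No gene passed an adjusted p of 0.05 (lowest 0.971, 660 genes at an unadjusted P below 0.05, 13 adjusted calls in DESeq2). Without MHLBA replicate 1, 459 of 15124 genes were called, 268 above and 191 below. Among the erythroid genes, 15 could be tested in MHs, 0 were DEGs and the median was 0.14, and the summed RPKM of the 6 MH libraries stayed between 55.8 and 121. The interaction was above 0 for 23 of 23 erythroid genes, with a median of 4.05, against 0.065 over all genes. Of the 23, 7 were called, against 2.54% of all genes called above 0. Of 36 cell cycle genes tested in MHs 0 were DEGs (median 0.19), and 1 of 40 was called in the interaction, against 2.54% of all genes called above 0. The interaction was above 0 for 39 of 40, with a median of 1.31, against 0.065 over all genes. The DP stage effects of both lists, already described, enter the interaction, so these values are no separate evidence.

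**Figure D5:**
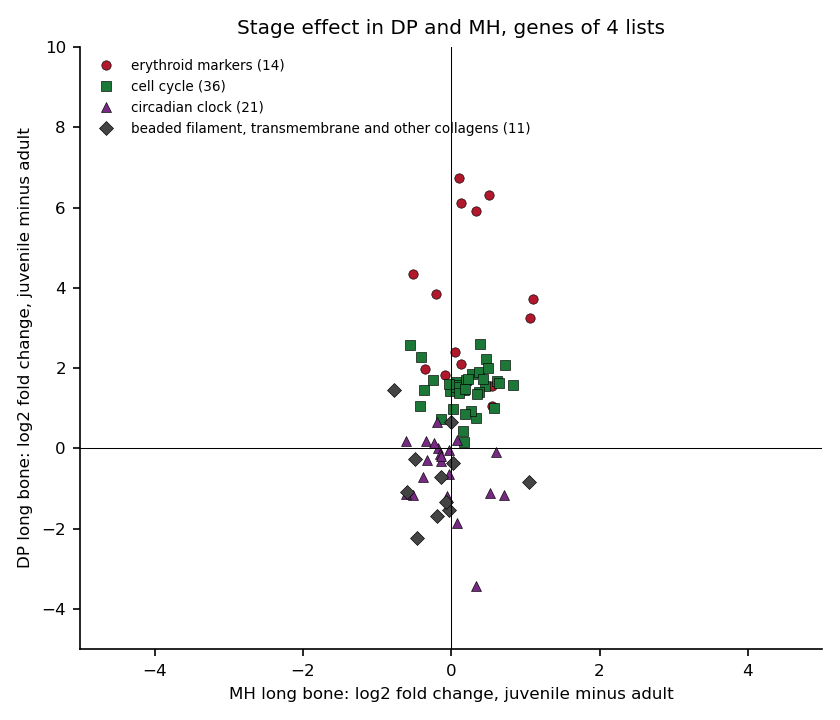
Log2 fold change juvenile minus adult in DP long bone (vertical axis) against that in MH long bone (horizontal axis), for 14 erythroid, 36 cell cycle, 21 circadian clock and 11 beaded filament, transmembrane and other collagen genes tested in both breeds, 1 point per gene. The 14 erythroid genes lie above 0 on the vertical axis and on both sides of 0 on the horizontal axis.

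Among the genes with the lowest P in the interaction (adjusted p = 0.971 for each) were GCH1, MERTK, STAC2, CACNA1B and LEF1. GCH1 was at 8.27, 13.3 and 15.6 RPKM in juvenile and 2.53, 3.66 and 4.14 RPKM in adult DPs, and at 8.70, 10.8 and 12.3 RPKM in juvenile and 12.4, 16.9 and 20.7 RPKM in adult MHs (interaction 2.69 on the log2 scale). The adult DPs were thus the low group of the 4. MERTK was at 4.73, 4.67 and 6.03 RPKM in juvenile and 14.4, 10.1 and 18.9 RPKM in adult DPs, against 9.57, 9.45 and 8.27 RPKM in juvenile and 3.08, 9.29 and 8.53 RPKM in adult MHs (interaction -1.77). The calcium channel gene CACNA1B was at 0.17, 0.51 and 0.23 RPKM in juvenile and 1.79, 0.54 and 2.82 RPKM in adult DPs, against 3.36, 2.32 and 1.63 RPKM in juvenile and 0.22, 0.45 and 1.38 RPKM in adult MHs (interaction -4.22). It fell in juvenile DPs and was higher in every juvenile than in any adult MH. The WNT transcription factor LEF1 was at 24.7, 23.9 and 43.3 RPKM in juvenile and 60.0, 28.3 and 71.4 RPKM in adult DPs, while in MHs the juveniles had 34.8, 37.5 and 73.7 RPKM and the adults 10.5, 18.2 and 22.0 RPKM (interaction -2.16).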

How the data were processed

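Directional libraries of RNA freed of ribosomal RNA were made from ground epiphysis and sequenced. The authors deposited, for the whole series, a table of raw counts of reads per gene (24232 genes) and a table of RPKM values (24248 genes), which they computed from the reads and a gene length. The submitters' processing notes name bcl2fastq, TopHat2 and edgeR, and the study's methods name other mapping tools and the EquCab genome. Which of them made these tables, and the counting program, are not given in the sources used here, and no genome was used here, so no coordinates are printed. In DPLBA replicate 2, 373 of 12054 genes with at least 50 reads had an RPKM more than 2% off what its reads give (in no other library did more than 3 do so), so tests used the reads.

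Counts were tested in edgeR 4.0.16 (R 4.3.3) by its quasi-likelihood test with TMM scaling and filterByExpr at a minimum count of 10, over the 6 libraries, or the 12 long bone libraries for the interaction. A DEG had an unadjusted P below 0.05 and a fold change over 2, the threshold of the study, and Benjamini-Hochberg adjusted values stand beside it. Means are given ± SD, n = 3. A floor of 3 reads per library equals 0.136 to 0.222 CPM, and covers counting error only. Alternatives were DESeq2 1.42.0, edgeR's exact test, other size factors, no filter, limma 3.58.1 on log2(RPKM + 0.1) and log2(RPKM + 1) after an RPKM filter of 0.5, the replicate number as a block, and each library left out in turn. The code was tested on simulated data.

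Genes were described in 49 lists (1234 distinct symbols, 28 matched through an older symbol). The text names the 12 DEGs of lowest P in each direction with a symbol and no overlap of groups, the DEGs, the member of highest RPKM and, in lists with no DEG, up to 2 members of lowest P of each list, GHR, IGF1, ALPL and the genes the study named, 6 interaction genes and the 5 genes of highest RPKM. Of these, 5 genes are not reported here, though counts and medians of lists include them. No symbol is given for 8077 genes. The comparison, the members and the lists were chosen with earlier results of these data known. The erythroid genes HBA, HBA1, HBA2, HBE, KLF1, GATA1 and RHCE were not matched by symbol.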

Additional observations from a re-analysis of the deposited data

Results flagged for a closer look

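For 54 genes picked by the rule for naming genes, the stage effect in DP long bone differed from that in MH long bone in the interaction test of edgeR's quasi-likelihood fit over the 12 long bone libraries, at an unadjusted P between 0.000241 and 0.0459. The adjusted p was 0.971 for each, so none holds after correction. A positive value means that the log2 difference juvenile minus adult was greater in DPs. Of the 54, 48 were DEGs of DPs, and the others were picked for a low P in DPs or in the interaction, or as genes of the study. Choosing DEGs of DPs favours a difference in the direction of the DP effect, which all 48 had, so the values are a description.

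Among the DEGs higher in juvenile DPs, the value was 6.55 for HEMGN, 5.95 for HBZ1, 4.83 for SPTB, 4.05 for TMCC2, 3.99 for MPP2, 3.59 for CLIC5, 3.10 for CDC20, 3.01 for SOX6, 2.69 for GCH1, 2.65 for RIC3, 2.35 for SLC25A37, 2.33 for EPB41, 1.97 for NAA16, 1.94 for TBCEL, 1.89 for FECH, 1.66 for SRPK1, 1.58 for RIF1, 1.56 for DUSP1, 1.19 for KIAA1524 and 1.03 for ZFAND6. Among those lower in juvenile DPs it was -5.42 for SLIT1, -5.35 for SATL1, -5.01 for BPIFC, -4.52 for ANKRD33, -4.22 for CACNA1B, -3.76 for NR1D1, -3.67 for MARCO, -3.66 for LAMA2, -3.65 for MYCN, -3.13 for STAC2, -3.10 for FST, -2.93 for EBF1, -2.79 for VDR, -2.57 for ISLR2, -2.44 for FLT4, -2.29 for DKK1, -2.18 for CRTAC1, -2.09 for TNC, -1.99 for SIGLEC1, -1.89 for NPAS2, -1.78 for LGR6, -1.77 for MERTK, -1.71 for PODNL1, -1.66 for DBP, -1.58 for ADAMTS12, -1.53 for COL6A2, -1.51 for COL6A1 and -1.43 for PDGFRB. For genes that were not DEGs it was 3.01 for the plasma cell gene FKBP11, -1.28 for COL4A2, -1.82 for EGR3, -1.94 for LPL, -2.16 for LEF1 and -2.75 for 1 of 2 genes with the symbol DQA, whose reads near-identical copies may share. The fitted values of SLIT1, SATL1, BPIFC and ANKRD33 depend on groups with few reads.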

How the results depend on the processing

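The 3 ponies per group, the unadjusted threshold and the spread of marrow and cartilage RNA among pieces limit every count given here, and the cause of each change below was not tested unless stated. The number of DEGs was 436 with all libraries, 197 by limma on log2(RPKM + 1) and 819 with no filter on low counts, which also tested more genes, and 209 to 1323 when 1 library was left out. Higher DEGs (219) came to 362 with DESeq2, 331 with the 12 long bone libraries in 1 fit, 117 and 82 by limma with a pseudocount of 0.1 and 1, 440 unfiltered and 79 to 903 with 1 library left out. Lower DEGs (217) came to 115 by limma on log2(RPKM + 1), 379 unfiltered and 130 to 420 with 1 library left out. Genes under an adjusted p of 0.05 (0) came to 15 with DESeq2, 3 with edgeR's exact test and 0 to 42 with 1 library left out. Interaction calls (615) came to 369 and 330 by limma with a pseudocount of 0.1 and 1, 967 unfiltered and 406 to 1137 with 1 library left out.

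Alternatives for the lists were added after seeing the data. Erythroid DEGs (17) came to 3 and 9 by limma with a pseudocount of 0.1 and 1 and to 5 to 24 with 1 library left out. Cell cycle DEGs (10) came to 22 with DESeq2, 17 with the exact test, 0 in both limma fits, 21 unfiltered and 0 to 37 with 1 library left out. Collagen DEGs of the beaded filament list (3) came to 2 to 5, with medians from -1.38 to -0.56. Clock DEGs (4) came to 2 by limma on log2(RPKM + 1) and to 1 to 7 with 1 library left out, with medians from -0.85 to -0.26.

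With the replicate number as a replicate block, 319 genes were DEGs, 120 higher and 199 lower, and 2 cell cycle genes were. Deviations from the group means correlated at -0.066, 0.054 and 0.096 between the juvenile and the adult of the same number, and each number belongs to different ponies, so the numbers do not pair the samples.

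Of 100 DEGs named, the call held in 723 of 888 values computed with all libraries and in 377 of 600 with 1 left out, and the sign turned in 1, ASPN at 1.65 without DPLBA replicate 2 (-6.48 to 1.65 over the 6 fits). Among the other genes, none a DEG, the sign turned for CEBPE at -0.41 by limma on log2(RPKM + 0.1) and -0.10 with the replicate block, for IL5RA at -0.28 and for TUBB1 at -0.56 by that limma fit. With 1 library left out, values spanned 0 for CEBPE (-0.79 without DPLBJ replicate 2, to 2.87), IL5RA (-0.10 without DPLBJ replicate 2, to 1.42), TUBB1 (-0.075 without DPLBJ replicate 2, to 2.52), H2AFV (-0.070 without DPLBJ replicate 2, to 0.86), COL14A1 (-1.71 to 0.19, the latter without DPLBA replicate 2), KIT (-1.43 to 0.37, without DPLBA replicate 1) and GHR (-0.62 to 0.57 without DPLBA replicate 1 and 0.11 without DPLBJ replicate 3).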

Other observations

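The 42 genes with an adjusted p below 0.05 in edgeR's quasi-likelihood test without DPLBJ replicate 1, all higher in juveniles, also held red cell genes outside the list, named here after their values were seen. Beta-adducin ADD2, which caps actin in the membrane skeleton, was at 1.41, 49.5 and 35.6 CPM in juveniles and 0.893, 2.09 and 1.56 CPM in adults, and the erythroid ubiquitin ligase TRIM10 was at 0.296, 48.0 and 75.1 CPM against 1.62, 1.82 and 0.653 CPM. The red cell carbonic anhydrase CA1, also among the 42, belongs to the erythroid list and is already counted there without DPLBJ replicate 1. CA1 was not tested with all 6 libraries, and had 6, 337 and 292 reads in juveniles and 4, 7 and 6 in adults. In each, DPLBJ replicates 2 and 3 were far above all adults, and DPLBJ replicate 1 was not. The cell cycle genes CENPE, TPX2, MYBL2 and DLGAP5 were among the 42 as well.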
